A study of Saccharomyces cerevisiae with 268 samples.

Results

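Budding yeast strains that each lack 1 of 7 DNA-binding repressors known to recruit the corepressor Tup1 were compared with all other deletion strains of the same array series. The columns were picked by the gene named in the sample title, a rule that uses no measured value but was written with earlier results of these data known: ROX1 (ypr065w), MOT3 (ymr070w), NRG1 (ydr043c), SKO1 (ynl167c), CUP9 (ypl177c), SFL1 (yor140w) and RFX1 (ylr176c). They make up 7 of the deletion columns, beside 1 column for TUP1 itself (ycr084c), used as the reference for loss of the corepressor, and 260 columns for deletions of other regulators.

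The series measured how RNA levels change when a yeast strain loses 1 transcription factor, in order to map which regulator acts on which gene. On each 2-channel array, total RNA of a deletion strain labelled with Cy5 was set against wild type RNA labelled with Cy3. Both strains were in mid-log growth. Each genotype is a single deletion with 1 column and no replicate, and no treatment, time point or second allele is named. Strain background, medium, mating type and the number of arrays behind a column: for none of them do the sources used here give a statement.

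Tup1 does not bind DNA itself. Together with its partner Cyc8 it is brought to promoters by sequence-specific repressors, each of which responds to its own signal, and there it keeps transcription low by way of histone deacetylases and the Mediator complex. Rox1 and Mot3 hold down genes for life without oxygen, Sko1 genes of the osmotic stress response, Rfx1 genes of the DNA damage response, Nrg1 genes repressed by glucose, Sfl1 genes for cell adhesion, and Cup9 the gene for the peptide transporter Ptr2.

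The deposited values are signed scores of deletion over wild type, between -8.35 and 8.05 over the whole table, on a scale and with a log base that no source used here states. They are therefore described as scores or differences between scores and never as fold changes. A gene is called raised or lowered in a column when its difference from the mean of all other columns had an adjusted p under 0.05 in limma, with Benjamini-Hochberg adjustment over all genes tested. Some counts at an unadjusted p under 0.05 are also given. Where no gene differs, a share of about 0.05 of the genes reaches that level, raised and lowered together. The lowered counts of this kind all lie under the part of that share for a single direction. They are no sign of further lowered genes. With 1 column per deletion there is no replicate check, so the spread comes from the other columns and the lone column is assumed to vary like them. A second, rank-based count took genes for which a column was among the 3 highest of all columns and at least 1 above the gene's median. A single column that ranks highest has a two-sided exact rank p of 0.00746, the smallest this design allows.

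The deleted gene itself was low in 5 of the 7 columns. CUP9 stood at -7.19 in its own column, MOT3 at -5.80, ROX1 at -3.24 and RFX1 at -1.70, and each of these was the lowest value of its gene in the series. SKO1 stood at -2.0 in its own column, the lowest but 1 of 265, because the RFX1 column held it at -2.01. In the column labelled NRG1 the NRG1 gene stood at -0.51, which ranked 78th from the lowest of 264 columns, against a median of -0.25 in the others. In the column labelled SFL1 the SFL1 gene stood at 0.30, which ranked 129th from the lowest of 247, against a median of 0.28. For both genes the score goes against the label, and no source used here says where the array probes lie relative to the deleted stretch. TUP1 stood at -6.59 in its own column, the lowest of all.

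**Figure D1:**
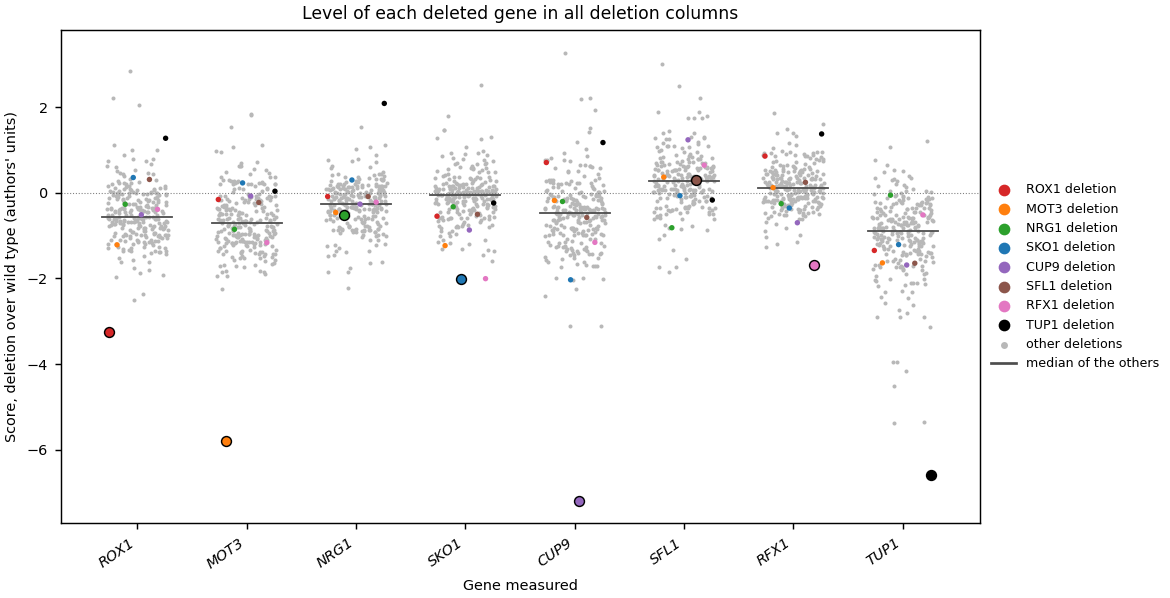
Score (deletion over wild type, authors' units) of each deleted gene in all deletion columns. Large rimmed points are the strain that lacks the gene, small coloured points the other repressor columns and the TUP1 column, grey points the remaining columns, and bars their median; the rimmed point lies at the bottom for ROX1, MOT3, CUP9, RFX1 and TUP1, and inside the grey cloud for NRG1 and SFL1.

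The breadth of the 7 columns lay within the range of the series. Between 930 genes (the column labelled SFL1) and 1747 genes (CUP9) had a score beyond 1 in size, against a median of 1217 over all columns and 2832 in the TUP1 column. Markers of mating type set 2 of them apart. In the CUP9 column the alpha-cell genes STE3, MF(ALPHA)1, MF(ALPHA)2 and SAG1 stood at -6.64, -2.82, -2.14 and -3.01, and in the SKO1 column 4 of 7 genes specific to a cells (MFA1, STE2, BAR1 and AGA2) stood below -2. The same 4 stood below -2 in the TUP1 column, and their part in the results below was not tested. In the other 5 repressor columns none of these genes stood below -2.

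Loss of ROX1 raised 8 of 16 listed hypoxic genes, which yeast uses when oxygen is scarce. In limma 21 genes rose, which is 0.384% of the 5474 genes tested, and 1 fell (0.0183%), SBE2, which acts in bud wall growth. By the rank rule 120 genes (2.19%) stood high in this column. None of the 16 hypoxic genes fell, and their median difference was 3.01, against 0.11 over all genes tested in the column.

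HEM13, coproporphyrinogen oxidase of heme synthesis, scored 7.13 in the ROX1 column, 2.62 in the MOT3 column and between -1.20 and -0.50 in the other 5 repressor columns. Over the remaining strains it ran from -2.69 through a median of -0.39 to 2.54, so the ROX1 column lay far above all others and the MOT3 column came next. Its difference in the ROX1 column was 7.50 ± 0.74 (SE, adjusted p = 7.64e-17, limma), the smallest adjusted p in any of the 7 columns.

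ANB1, the hypoxic form of translation factor eIF5A, scored 4.35 in the ROX1 column and at most 2.37 in the remaining strains, a difference of 4.89 ± 1.19 (adjusted p = 0.0294, limma). LIA1, the enzyme that completes the modification of eIF5A, scored 4.18 and rose by 4.98 ± 1.23 (adjusted p = 0.0295, limma). The factor and its modifying enzyme were thus highest of all columns in the same strain. COX5B, the hypoxic form of a cytochrome oxidase subunit, scored 4.84, against at most 2.66 in the remaining strains, and CYB5, cytochrome b5, scored 4.25 against at most 3.43. The ROX1 strain was at the top for both, with differences of 4.27 ± 0.80 for COX5B and 4.38 ± 0.89 for CYB5 (adjusted p = 0.000458 and 0.00283, limma).

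Further genes rose in the ROX1 column. FET4, a low-affinity iron transporter, rose by 4.21 ± 1.06, SUR2, a sphingoid base hydroxylase, by 4.21 ± 0.90, LAC1, a ceramide synthase subunit, by 4.16 ± 1.04, and ERG1, squalene epoxidase, by 3.71 ± 0.90. AAC3, the hypoxic ADP/ATP carrier, rose by 3.71 ± 0.84, and the wall mannoproteins TIR2 and DAN1 rose by 6.79 ± 1.77 and 4.41 ± 1.09. The adjusted p of these 7 genes ran from 0.00679 for SUR2 to 0.0423 for TIR2 (limma). The remaining raised genes were SCM4, OYE2, RCF2, DER1, WTM2, CTS2, MLO1, NAS6 and TWF1, with differences from 2.14 to 4.0. Under quantile normalization the calls of HEM13, ANB1, LIA1, COX5B, CYB5 and SUR2 held and those of the other raised genes were lost, TIR2 (adjusted p = 0.284, limma), DAN1 and AAC3 among them. The values of TWF1 and SBE2 were among those deposited with fewer digits than the rest.

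Other hypoxic genes did not pass the test. CYC7, a minor form of cytochrome c, scored -1.57 in the ROX1 column, HMG2 scored -0.41, TIR1 scored 0.77 and OLE1, the fatty acid desaturase, scored 1.61 (adjusted p from 0.864 to 0.951, limma). Of 25 ergosterol genes 2 rose, ERG1 and CYB5, and the median difference of the list was 0.57. Genes of the iron regulon lay on the other side: none of 17 was above the mean of the other columns and their median difference was -1.51, though none passed the test. FET3, the high-affinity iron oxidase, scored -4.62 in the ROX1 column (adjusted p = 0.463, limma).

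Loss of MOT3 raised anaerobic wall genes and some genes of mating. In limma 20 genes rose (0.358% of 5583) and 16 fell (0.287%), and 70 genes (1.25%) stood high by the rank rule. Of 9 anaerobic cell wall genes 3 rose, with a median difference of 1.87 against 0.06 over all genes.

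DAN1 scored 7.45 in the MOT3 column, 4.99 in the ROX1 column and between 0.18 and 1.19 in the other 5 repressor columns, while the remaining strains ran from -2.21 through 0.45 to 5.34. MOT3 was the highest of all columns for this gene, ahead of TUP1 at 6.15, and the difference was 6.88 ± 1.04 (adjusted p = 1.15e-06, limma). TIR2 scored 6.23 in the MOT3 column, 6.17 in the TUP1 column and 6.08 in the ROX1 column, the 3 highest values of the series. TIR3, of the same wall protein family, scored 5.79 and rose by 6.04 ± 1.44 (adjusted p = 0.0134, limma). The related genes TIR1, TIR4 and DAN4 scored -0.08, 0.07 and 1.93 and did not pass the test.

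The PAU genes are a large family of seripauperin wall proteins with near-identical copies, so that signal on 1 probe may come from several genes. In the MOT3 column 21 of 23 lay above the mean of the other columns, with a median difference of 1.76, and 1 passed the test, PAU11 at a score of 1.77 (difference 2.22 ± 0.61, adjusted p = 0.0491, limma). In the ROX1 column the same family had 2 of 23 above the mean and a median difference of -0.68.

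Regulators were among the genes raised in the MOT3 strain. HMS1, a transcription factor of filamentous growth, scored 4.70 and rose by 4.23 ± 0.74 (adjusted p = 4.49e-05, limma). SUT1, a factor of sterol uptake, scored 2.604 and rose by 2.68 ± 0.48 (adjusted p = 6.45e-05). KAR4, a factor needed for nuclear fusion in mating, scored 4.08 and rose by 4.28 ± 0.99 (adjusted p = 0.00853). For all 3 genes the MOT3 column was the highest of the series.

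ASG7, a gene specific to a cells, scored 3.80 in the MOT3 column and at most 1.79 in the remaining strains, with a difference of 3.80 ± 0.66 (adjusted p = 4.49e-05, limma). AGA2, the adhesion subunit of a-agglutinin, scored 5.45, also the highest of the series, but its spread over strains was wide and it did not pass (adjusted p = 0.239). Of the 7 genes specific to a cells 6 lay above the mean of the other columns, with a median difference of 2.46. Other raised genes were SOM1, DIF1, CPR8, UTR4, SHG1, GUP2, MAN2, AAC3, DFP4, YGL039W, YDL241W and the transposon feature YGR109W-A. Quantile normalization ended the calls of TIR2, TIR3 (adjusted p = 0.0973, limma), KAR4, PAU11, DIF1, UTR4, GUP2, MAN2, AAC3, DFP4, YGL039W and YDL241W.

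Genes lowered in the MOT3 column included 2 of the GID ubiquitin ligase, which marks gluconeogenic enzymes for destruction. GID10, a substrate receptor, scored -3.21 and FYV10, a core subunit, scored -2.67, each the lowest of the series, with differences of -3.35 ± 0.63 and -2.63 ± 0.60 (adjusted p = 0.000229 and 0.00751, limma). FLO8, an activator of adhesion genes, scored -2.40, KNH1, a wall glucan gene, scored -3.30, and YHP1, a homeodomain repressor of the cell cycle, scored -2.60. Further lowered genes included FIR1, YIL082W-A, FMP23, AIP5, JJJ3, SFC1, NKP1, TES1, SPT2 and BCH2, with differences from -2.58 to -1.91. Of the 16 lowered genes 9 (56.2%), FYV10, KNH1 and YHP1 among them, had values deposited with fewer digits than the rest, against 12.2% of all genes in this column, and the part of that format in the result was not tested.

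The ROX1 and MOT3 columns were also set directly against each other, a contrast added after the data were seen. In limma 4 genes were higher in the ROX1 column (0.0734% of 5451 genes), namely SUR2, HEM13, YHP1 and FLO8, and 3 were higher in the MOT3 column (0.055%), namely HMS1, ASG7 and YGR109W-A. The ROX1 column minus the MOT3 column was 4.51 ± 1.02 for HEM13 and -4.56 ± 0.93 for ASG7 (adjusted p = 0.0207 and 0.00786). For the wall genes it was -0.15 ± 2.43 for TIR2 and -2.46 ± 1.42 for DAN1, and for AAC3 it was 0.27 ± 1.15, none of which passed the test (adjusted p = 0.999 for each).

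Loss of RFX1 raised 3 of the 4 genes of ribonucleotide reductase, the enzyme that supplies the building blocks of DNA: RNR2, RNR3 and RNR4 but not RNR1. In limma 11 genes rose (0.199% of 5535) and none fell (0%), with 57 lowered genes at an unadjusted p under 0.05 and 39 genes low by the rank rule. By the rank rule 26 genes (0.47%) stood high.

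RNR2 and RNR4, the small subunits of the reductase, scored 7.58 and 7.23 in the RFX1 column, with differences of 8.01 ± 1.38 and 8.09 ± 1.38 (adjusted p = 1.55e-05 and 1.1e-05, limma). RNR3, the large subunit made under DNA damage, scored 7.52 and rose by 7.30 ± 0.79 (adjusted p = 5.69e-14). HUG1, a small inhibitor of the reductase that is strongly damage-induced, scored 7.98 and rose by 7.51 ± 1.61 (adjusted p = 0.00272). For each of these 4 genes the RFX1 column was the highest of the series, though HUG1 reached 7.80 in the SWI3 column and RNR2 reached 6.44 there.

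The other genes of the damage list did not pass the test. Of 11 genes 4 rose, those named above, and the list median was 0.45 against -0.14 over all genes. RNR1, the large subunit of normal growth, scored 0.45, and the repair gene RAD54 scored -0.14. DUN1, the checkpoint kinase, scored -0.39.

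Other genes rose as clearly as the reductase genes. ATR2, a membrane transporter of the drug efflux type, scored 6.98, against at most 3.02 in the remaining strains and 2.44 in the TUP1 column, and rose by 7.27 ± 0.80 (adjusted p = 8.51e-14, limma). YPR015C, a zinc finger gene, scored 6.80 and rose by 6.55 ± 0.73 (adjusted p = 1.48e-13), and the IXR1 column held it at 6.48. GUP2, a membrane protein related to the glycerol uptake factor Gup1, scored 5.64 and rose by 5.17 ± 0.78 (adjusted p = 2.7e-07). Quantile normalization ended the calls of HUG1 (adjusted p = 0.214, limma) and GUP2 (adjusted p = 0.0503). YDL129W, AMF1, SLI1 and ATG11 rose by 4.77, 4.20, 3.10 and 2.19. YLR177W, which lies next to the deleted RFX1 gene, scored 2.76 and did not pass the test (adjusted p = 0.14).

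The SKO1 column had few calls, led by a stress reductase. In limma 4 genes rose (0.0718% of 5571) and none fell (0%), with 54 lowered genes at an unadjusted p under 0.05 and 41 low by the rank rule. By the rank rule 25 genes (0.449%) stood high.

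GRE2, a methylglyoxal reductase of the osmotic stress response, scored 6.07 in the SKO1 column and between -3.21 and -0.11 in the other 6 repressor columns, while the remaining strains ran from -4.84 through -0.94 to 5.49. The SKO1 column was the highest of the series, and the difference was 6.90 ± 1.32 (adjusted p = 0.00104, limma). FRE4, a ferric reductase, scored 5.97, and THI4, of thiamine synthesis, scored 4.62, also the highest values of their genes. Their differences were 6.23 ± 1.31 and 4.40 ± 0.82 (adjusted p = 0.00433 and 0.00093). SOL1 rose by 3.11 ± 0.63 (adjusted p = 0.0027). Quantile normalization ended the call of FRE4 (adjusted p = 0.461, limma). The THI4 value was one of those deposited with fewer digits.

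GRE2 was the only one of 21 osmotic stress genes to pass the test in the SKO1 column, where 18 of the 21 lay above the mean of the other columns. Their median difference was 0.71, against -0.20 over all genes. YML131W, an oxidoreductase of the stress response, scored 4.43 and narrowly missed the threshold (adjusted p = 0.0565, limma), and GPD1, of glycerol synthesis, scored 2.65 (adjusted p = 1). By mating-type or auxotrophic markers or by format, 63 columns stand apart, the SKO1 column itself among them. With the rest of these left out of the comparison, YML131W passed the test at a difference of 5.07 ± 0.95. The other gains were HXT1, FSH1 and YHR033W.

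The column labelled SFL1 carried an adhesion gene at its top. In limma 2 genes rose (0.0356% of 5614) and none fell (0%), with 4 lowered genes at an unadjusted p under 0.05 and 2 low by the rank rule. By the rank rule 12 genes (0.214%) stood high. FLO10, a flocculin of the cell surface, scored 5.52 in it, between -1.49 and 1.30 in the other 6 repressor columns, and at most 2.31 in the remaining strains. The column lay above all others, with a difference of 5.48 ± 0.82 (adjusted p = 9.22e-07, limma), although the SFL1 gene itself was not low. CST26, of phospholipid acylation, rose by 2.599 ± 0.57 (adjusted p = 0.0244), a call that was lost without the columns that stand apart.

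The other flocculin genes did not pass in that column: FLO1 scored 0.33, FLO5 -0.36, FLO9 0.20 and FLO11, the main adhesin of invasive growth, 0.61. SUC2, invertase, scored 0.41 and HSP30, a stress gene of the plasma membrane, -3.20, neither past the threshold. FLO1, FLO5 and FLO9 are close copies, and their probes may share signal. The list of 8 adhesion and stress genes had a median difference of 0.40, against -0.05 over all genes.

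The column labelled NRG1 had few calls. In limma 1 gene rose (0.018% of 5566) and none fell (0%), with 28 lowered genes at an unadjusted p under 0.05 and 13 low by the rank rule. By the rank rule 8 genes (0.144%) stood high. The raised gene was ABM1, whose loss disturbs microtubules, at a score of 4.21, ahead of at most 2.91 in the remaining strains (difference 3.74 ± 0.79, adjusted p = 0.0203, limma). Quantile normalization of the columns ended this call. Of 26 glucose-repressed genes none rose, and their median difference was 0.18, against -0.10 over all genes. SUC2 scored -0.01, HXK1 -0.07 and FLO11 0.29, each well within the range of the other strains.

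The CUP9 column had no raised gene in limma (0% of 5524), with 184 at an unadjusted p under 0.05 and 30 (0.543%) that stood high by the rank rule. PTR2, the peptide transporter gene that Cup9 is known to repress, scored 2.36 in this column and between -3.81 and -0.92 in the other 6 repressor columns. It was thus the highest of the 7, yet it ranked 22nd of the series, with the remaining strains reaching 5.22, and the difference of 3.53 did not pass (adjusted p = 0.627, limma). AAP1, an aminopeptidase, scored 3.74, the highest of the series (adjusted p = 0.132).

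The test found 2 lowered genes in the CUP9 column (0.0362%). URA2, the first enzyme of pyrimidine synthesis, scored -3.04 and fell by 3.22 ± 0.55, and EMA35 scored -3.19 and fell by 3.58 ± 0.79 (adjusted p = 8.06e-05 and 0.0267, limma). Iron regulon genes lay low without passing: none of 18 was above the mean of the other columns and their median difference was -1.82. Without the columns that stand apart the CUP9 column had 3 raised genes, AAP1, TOP3 and GRX3, and 14 lowered genes, which then included STE3, SAG1 and MF(ALPHA)1. The columns left out were chosen partly by low STE3 and MF(ALPHA)1, so these 2 genes stand out there by construction. The CUP9 column itself meets that criterion and was kept for its own comparison.

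**Figure D2:**
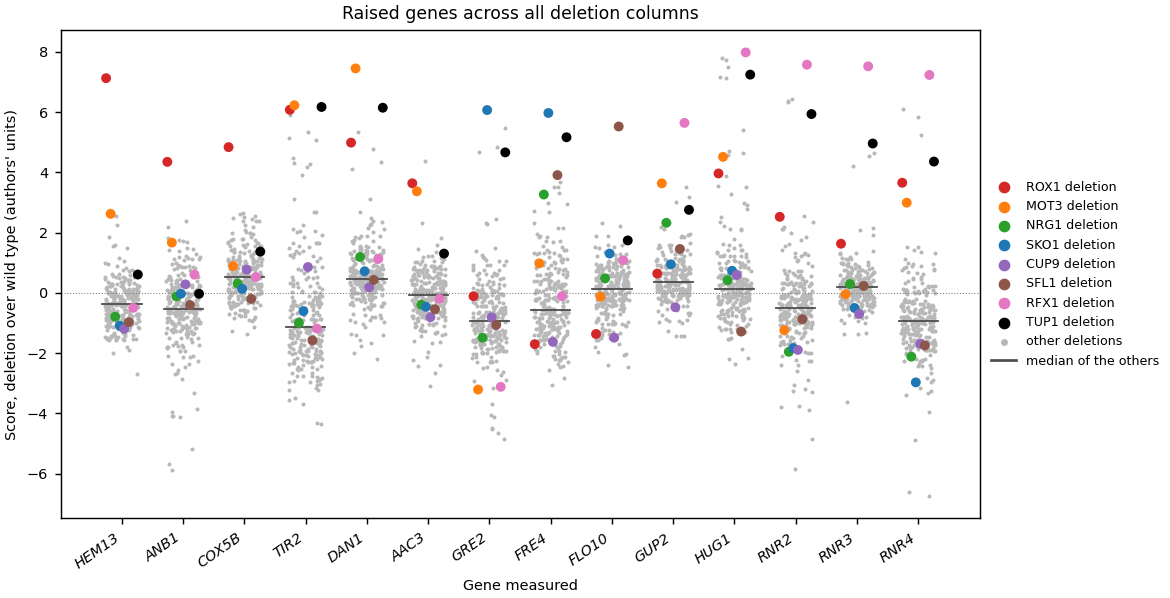
Scores (deletion over wild type, authors' units) of 14 genes in all deletion columns. Coloured points are the 7 repressor columns and the TUP1 column, grey points the other strains and bars their median; HEM13, ANB1 and COX5B are highest in the ROX1 column, GRE2 and FRE4 in the SKO1 column, FLO10 in the column labelled SFL1, and HUG1 and the RNR genes in the RFX1 column.

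Gene lists written for the 7 regulators with earlier results of these data known separated the columns unevenly. The hypoxic list had its highest median in the ROX1 column at 3.01, and lay between -0.46 and 0.20 in the other 6 repressor columns. The anaerobic wall list was high in both the ROX1 column (2.05) and the MOT3 column (1.87). The copper and peptide transport lists in the CUP9 column had medians of 0.25 and -0.86, with 0 of 9 and 0 of 7 genes raised. Of the general stress genes none passed the test in any of the 7, and the list medians ran from -0.95 in the MOT3 column to 0.33 in the SKO1 column.

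**Figure D3:**
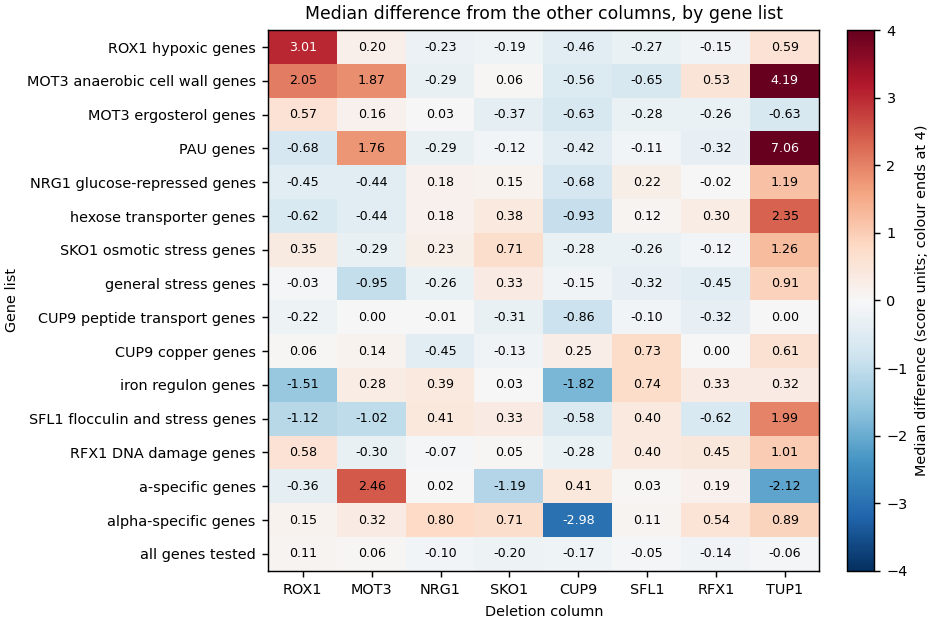
Median difference from the other columns (score units) of each gene list in the 7 repressor columns and the TUP1 column, with all genes tested in the bottom line. The hypoxic list is highest in the ROX1 column (3.01), the PAU genes in the TUP1 column (7.06) and then the MOT3 column (1.76), and the alpha-specific genes are lowest in the CUP9 column (-2.98).

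Together the 7 strains raised 55 different genes in limma, of which 4 were raised in 2 columns and none in 3 or more. Ranks put 276 genes high in any of the 7, 15 in 2 columns and none in 3. A gene has only 3 places over the whole series by this rule, so the last count was close to fixed in advance. TIR2, DAN1 and AAC3 were raised in both the ROX1 column and the MOT3 column, which is 14.3% of the 21 ROX1 genes and 15% of the 20 MOT3 genes. GUP2 was raised in both the MOT3 column and the RFX1 column, 5% and 9.09% of their lists. Over all genes 0.384% were raised in the ROX1 column, 0.358% in the MOT3 column and 0.199% in the RFX1 column, and the other 4 columns had between 0 and 4 raised genes that could be shared. Under quantile normalization TIR2, DAN1 and AAC3 were no longer raised in the ROX1 column, nor GUP2 in the RFX1 column, so none of the 4 genes was then raised in both of its columns. The columns are each compared with largely the same other columns, so these shares are descriptions and not tests.

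**Figure D4:**
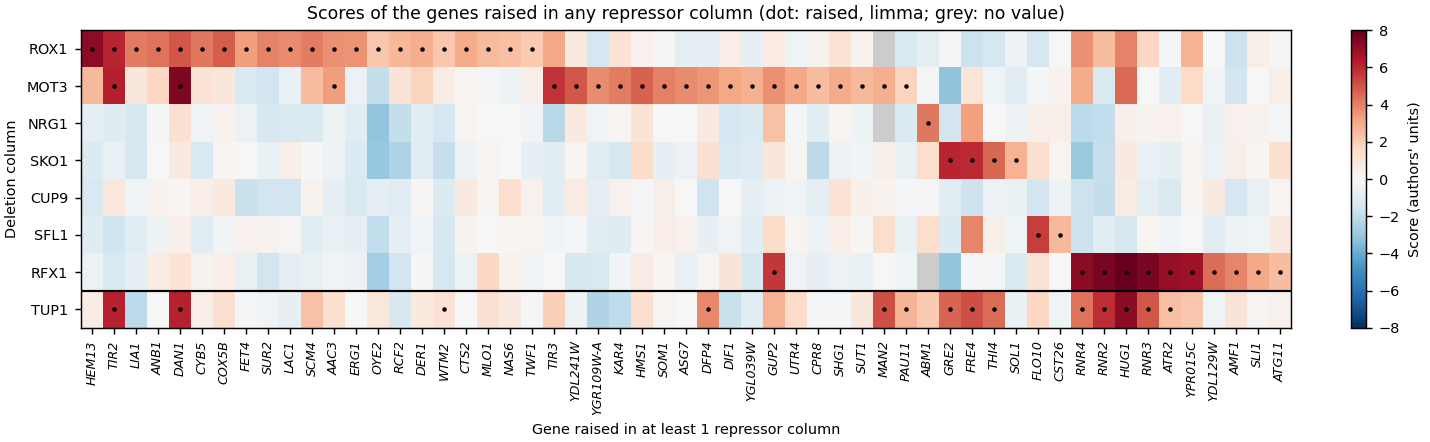
Scores (authors' units) of the 55 genes raised in at least 1 repressor column, with the TUP1 column below the line. Dots mark genes raised in that column by limma; the dots form separate blocks for ROX1, MOT3, SKO1 and RFX1 that share only TIR2, DAN1, AAC3 and GUP2, and 14 genes carry a dot in the TUP1 column.

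Scores below the threshold crossed between columns in places. HUG1 scored 3.96 in the ROX1 column and 4.52 in the MOT3 column, and RNR4 scored 3.66 and 2.99, while the other 4 repressor columns besides RFX1 held RNR4 between -2.97 and -1.69. FRE4 scored 5.97 in the SKO1 column, 3.91 in the column labelled SFL1 and 3.26 in the column labelled NRG1, against 5.17 in the TUP1 column, and passed the test in the SKO1 column and the TUP1 column. Neither pair of columns was tested for its difference in these genes.

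Treated as 1 set of different genotypes, the 7 columns had 3 genes higher than the 260 other strains (0.0534% of 5615) and none lower (0%), with 98 lower genes at an unadjusted p under 0.05. GUP2 was higher by 1.59 ± 0.30 (adjusted p = 0.0022, limma), YPR015C by 1.43 ± 0.31 (adjusted p = 0.0123) and DAN1 by 1.77 ± 0.40 (adjusted p = 0.0214). The SE of these differences rests mostly on the 260 other strains, and for all 3 genes the 7 columns spread more widely than those. GUP2 ran from -0.48 in the CUP9 column to 5.64 in the RFX1 column. DAN1 ran from 0.18 in the CUP9 column to 7.45 in the MOT3 column. YPR015C ran from -0.04 in the column labelled SFL1 to 6.80 in the RFX1 column. These p-values therefore do not measure an effect shared by the 7 columns. Without the MOT3 column no gene passed, without the RFX1 column 1 did, and without the ROX1 column 2 did. With the columns labelled NRG1 and SFL1 and the CUP9 column left out, an alternative added after the data were seen, 7 genes passed, HEM13, RNR3, RNR4 and HUG1 being the gains. Each gain had already been raised in a single column, HEM13 in the ROX1 column and the others in the RFX1 column. RNR3 scored 7.52 in the RFX1 column and 1.63, -0.05 and -0.50 in the ROX1, MOT3 and SKO1 columns. The gains therefore do not show an effect shared by the set.

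The genes raised in a repressor column were also looked up in the TUP1 column, the reference for loss of the shared corepressor. That column has no replicate, so an effect of the deletion cannot be told apart from errors of its culture or array. The TUP1 column had 316 raised genes in limma (5.63% of 5614) and 323 (5.75%) by the rank rule. Of the 55 genes raised in any repressor column 14 were also raised there, which is 25.5% of the 55 and 4.43% of the 316. With ranks, 13 of 276 genes stood high in both, which is 4.71% of the 276 and 4.02% of the 323. By this rule a gene counted for a repressor column has fewer places left for the TUP1 column. That lowers the share by construction, so it cannot be compared with the 5.75% of all genes. The 14 genes shared in limma were TIR2, DAN1, WTM2, DFP4, MAN2, PAU11, GRE2, FRE4, THI4, RNR2, RNR3, RNR4, HUG1 and ATR2. Of all 55 genes 41 lay above the mean of the other columns in the TUP1 column, against 48.1% of all genes. With quantile normalization, which left 14 raised genes in the TUP1 column, no gene was shared.

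Of the SKO1 genes 3 of 4 (75%) were raised in the TUP1 column, of the RFX1 genes 5 of 11 (45.5%), of the MOT3 genes 5 of 20 (25%) and of the ROX1 genes 3 of 21 (14.3%). The 1 gene of the column labelled NRG1 and the 2 of the column labelled SFL1 were not among them. With ranks in place of limma the shares were 16% of the 25 SKO1 genes, 7.69% of the 26 RFX1 genes, 5.71% of the 70 MOT3 genes and 3.33% of the 120 ROX1 genes. These shares were not tested against each other.

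The RFX1 and SKO1 genes that were also raised in the TUP1 column had these scores. HUG1 scored 7.98 in the RFX1 column and 7.25 in the TUP1 column, RNR2 scored 7.58 and 5.94, RNR3 scored 7.52 and 4.96, and RNR4 scored 7.23 and 4.36. GRE2 scored 6.07 in the SKO1 column and 4.66 in the TUP1 column, and THI4 scored 4.62 and 4.48. The others did not pass there: SOL1 of the SKO1 genes scored -0.55 in the TUP1 column, and of the RFX1 genes YDL129W scored -0.27, SLI1 0.23 and ATG11 0.33. All 11 RFX1 genes lay above the mean of the other columns in the TUP1 column, with a median score of 2.44.

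In the TUP1 column 12 of the 16 hypoxic genes lay above the mean of the other columns, with a median difference of 0.59 against -0.06 over all genes. Of all 16 genes 1 was raised and 1 lowered, OLE1 at -3.24. Of the 21 genes raised in the ROX1 column 16 lay above that mean. HEM13 scored 7.13 in the ROX1 column and 0.61 in the TUP1 column, ANB1 scored 4.35 and -0.03, COX5B scored 4.84 and 1.37, CYB5 scored 4.25 and 0.53, and FET4 scored 3.37 and -0.15. None of these 5 passed the test in the TUP1 column (adjusted p from 0.503 to 0.829, limma). The wall genes that ROX1 shares with MOT3 stood high there instead, TIR2 at 6.17 and DAN1 at 6.15. LIA1 stood at -2.09 in the TUP1 column.

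MOT3 genes were likewise divided. DAN1, TIR2, DFP4, MAN2 and PAU11 were raised in the TUP1 column, where MAN2, mannitol dehydrogenase, scored 5.18 against 2.90 in the MOT3 column. KAR4 scored 4.08 in the MOT3 column and -2.02 in the TUP1 column, YGR109W-A scored 3.80 and -2.43, and ASG7 scored 3.80 and -0.05. TIR3 scored 5.79 and 1.93. Genes specific to a cells were low in the TUP1 column, with a median difference of -2.12, the reverse of the 2.46 in the MOT3 column.

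**Figure D5:**
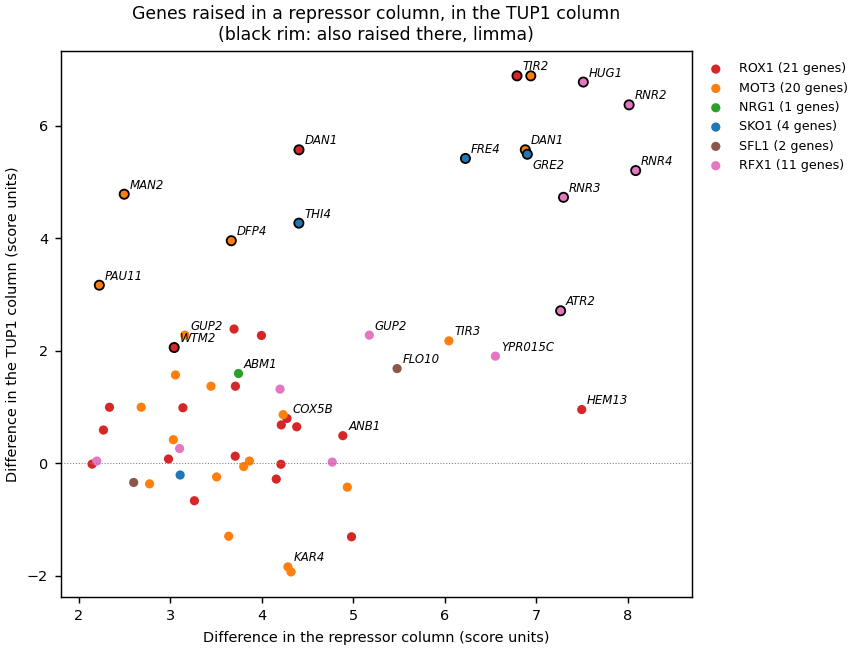
Difference from the other columns (score units) of the genes raised in a repressor column, in that column (horizontal) and in the TUP1 column (vertical). Colours give the repressor and black rims mark genes also raised in the TUP1 column; RFX1 and SKO1 genes reach the upper right, while HEM13, ANB1 and COX5B lie between 0 and 1 on the vertical axis.

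The gene lists were also counted in the TUP1 column, where 5.63% of all genes were raised, against 0 to 0.384% in the 7 columns. Of 23 PAU genes 21 were raised in the TUP1 column, with a median difference of 7.06, and 1 in the MOT3 column. Of 26 glucose-repressed genes 9 were raised there, SUC2 at a score of 5.31, and 7 of 16 hexose transporters, and no gene of either list was raised in any of the 7. FLO5 scored 6.26 in the TUP1 column and -0.36 in the column labelled SFL1, where FLO10 was the raised flocculin. FLO10 itself scored 1.74 in the TUP1 column and did not pass (adjusted p = 0.204, limma).

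The repressor genes were also read in the TUP1 column. NRG1 scored 2.08, the highest of the series, and rose by 2.37 (adjusted p = 0.00122, limma). ROX1, CUP9 and RFX1 scored 1.27, 1.17 and 1.37 without passing (adjusted p from 0.0701 to 0.17), and MOT3, SKO1 and SFL1 scored 0.03, -0.24 and -0.17. None of the 7 repressor columns had a raised or lowered gene among the other 6 repressors, the largest differences being -1.93 for SKO1 in the RFX1 column (adjusted p = 0.21) and -1.57 for CUP9 in the SKO1 column (adjusted p = 1).

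The same comparison was made with the CST6 column, because TUP1 itself stood at -4.16 in it while its own gene CST6 stood at -0.44. It had 463 raised genes in limma (8.25% of 5614). Of the 55 genes 2 were raised in the CST6 column, GRE2 and THI4, which at 3.64% is below that share. By the rank rule 11 of 276 genes (3.99%) stood high in the CST6 column, where 404 of all 5614 genes did, against 4.71% in the TUP1 column. The limit on places per gene lowers this share too, so it cannot be compared with that of all genes. Split by column, the shares in the CST6 column were 20% of the SKO1 genes, 5% of the ROX1 genes and 0% for the other repressor columns. GRE2 and THI4 were 50% of the 4 SKO1 genes raised in limma. HUG1 scored 1.78 in the CST6 column and DAN1 -0.44.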

How the data were processed

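Total RNA of yeast deletion strains (Cy5) and of wild type (Cy3) was measured on 2-channel arrays, per the labels. The authors deposited 1 table of 6419 features with 1 signed score per strain; for its scale, log base, centring and normalization no source used here gives a statement, so a fold change was never computed. Depth does not apply to arrays, and the number of arrays limits the precision. Columns were assigned to strains by the deposited sample identifiers and titles. Systematic names were matched to gene symbols of assembly R64 for 5655 features, and its coordinates were not used except to find neighbouring genes. A gene was tested where at least 80% of the columns had a value (5615 genes), and the deleted gene was masked in its own column. The tests were run on the scores as deposited with no further normalization, and the direction (deletion over wild type) was taken from the dyes.

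Each repressor column and the TUP1 column was compared with all other columns by limma 3.58.1 (lmFit, eBayes) in R 4.3.3, with Benjamini-Hochberg adjustment of p over each column's tested genes and a threshold of 0.05. The 7 columns together were compared with the 260 others, TUP1 left out. The fit was tested on simulated data. Alternatives were quantile normalization, leaving out 63 columns that stand apart, no filter on missing values, robust eBayes, exact ranks and leaving out each repressor column. A column stood apart when it had 2 or more of the genes STE3, MET17, MF(ALPHA)2 and MF(ALPHA)1, or at least 3 of 7 genes specific to a cells, scoring below -2. It also stood apart when nearly all its values had few digits, or when it was the CST6 column. The level of -2 was set after the data were seen. The SKO1, CUP9 and TUP1 columns stood apart by these rules, and each was kept in its own comparison. The SKO1 and CUP9 columns were also kept in the comparison of the 7 together.

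The genes named were, for each repressor column, its own gene, up to 12 genes with the largest raised and 5 with the largest lowered differences, and members of its list; genes named beyond this rule were chosen after their values were seen. The contrast of ROX1 with MOT3 was added after the data were seen. The 7 columns and the gene lists were chosen with earlier results of these data known. No promoter or protein sequences were used here, and the values of some genes are not reported here. Tables and figures were made in Python 3.11.15 with pandas 2.3.3, numpy 2.4.6 and matplotlib 3.10.9.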

Additional observations from a re-analysis of the deposited data

Results flagged for a closer look

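YPR015C, a zinc finger gene, stood apart in 1 of the 7 repressor columns. The RFX1 column held it at 6.80, and the gap to the next value, 2.78 in the ROX1 column, was 0.588 of the whole range. The gene had already been called raised in the RFX1 column, so this gap is a description and not a test. The 7 columns are different genotypes, not replicates. Outside them the IXR1 column held the gene at 6.48.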

How the results depend on the processing

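Of the 78 raised or lowered calls in the 7 repressor columns, 44 were kept under quantile normalization, 77 without the columns that stand apart (CST26 was lost), 77 without the filter on missing values (MLO1 was lost) and 78 with robust eBayes, and none changed direction. The cause was not tested for the counts that moved. Quantile normalization gave 6 raised and 2 lowered genes for ROX1, 8 raised for MOT3, 0 raised for NRG1, 3 raised for CUP9, 5 raised and 1 lowered for SFL1, 14 raised and 0 lowered for TUP1, 1 gene higher in the 7 columns together, and 0 genes shared with TUP1. Without the columns that stand apart the counts were 33 raised and 3 lowered for ROX1, 34 and 25 for MOT3, 8 raised for SKO1, 3 and 14 for CUP9, 1 raised for SFL1, and 479 and 606 for TUP1. Exact ranks in place of limma gave 120 high and 23 low genes for ROX1, 70 and 89 for MOT3, 8 and 13 for NRG1, 25 and 41 for SKO1, 30 and 86 for CUP9, 12 and 2 for SFL1, and 26 and 39 for RFX1. With the CST6 column in place of TUP1, 2 genes were shared. Leaving out each repressor column gave between 0 and 4 genes higher in the 7 together, and 0 lower each time; leaving out the columns labelled NRG1 and SFL1 and the CUP9 column gave 7 higher. No paired analysis was possible because each deletion has 1 column.

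Each column stands for 1 strain without replicate, so errors of a single culture or array cannot be told apart from the effect of the deletion. The scale of the scores limits every difference to its own units. The columns labelled NRG1 and SFL1 did not show their own gene low, the CUP9 and SKO1 columns carried unusual mating-type markers. Few calls in a column do not show that few genes changed.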

Other observations

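Genes of the mating response, which no list of this work covers as a whole, stood high in the MOT3 column. AGA1, the anchor subunit of a-agglutinin, scored 4.35 there and between -2.62 and 0.20 in the other 6 repressor columns, and FUS1, a cell fusion gene, scored 2.81 there and between -3.00 and 0.26 in the others. SST2, a brake on pheromone signalling, scored 2.62. None of the 3 passed the test (limma, adjusted p of 0.11 for AGA1 and FUS1 and 0.335 for SST2). They passed without the columns that stand apart, but those were chosen partly by low genes specific to a cells, which narrows the spread of mating genes by construction, so those calls support nothing. These genes were picked after their values were seen.

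Features of the Ty3 transposon, which is known to be induced by pheromone, disagreed in the same column. YGR109W-A scored 3.80 and the feature named YILWTy3-1A scored 3.75, against a median of -0.58 over all columns for the latter, while YIL082W-A scored -2.23, a value deposited with fewer digits. The feature YIL080W, close to YIL082W-A by its systematic name, scored 3.78, against a median of -0.79 over all columns. No source used here assigns YIL080W to the element. Copies of the element are near-identical, so these values are uncertain.

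Among features without a gene name, the feature IntYGL033W scored 5.48 in the MOT3 column, YOL150C scored 5.94 in the SKO1 column, iYMR268C scored 4.05 and iYGR174C 3.58 in the ROX1 column, and iYDL086W scored 3.08 in the RFX1 column, each the highest of the series.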
